A study of Mus musculus with 47 samples.

Results

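The genes described here make cholesterol and fatty acids or control their synthesis, and they were read in the small intestine of mice with and without a gut flora. They are 35 of the 38087 genes in the deposited table of exon read counts, taken by gene symbol from a fixed list: 18 genes of cholesterol synthesis and handling (Acat2, Hmgcs1, Mvk, Pmvk, Mvd, Idi1, Fdps, Ggps1, Fdft1, Sqle, Lss, Cyp51, Tm7sf2, Nsdhl, Hsd17b7, Ebp, Dhcr7 and Stard4), 12 genes of fatty acid synthesis and remodelling (Acly, Acaca, Acacb, Fasn, Scd1, Scd2, Elovl5, Elovl6, Fads1, Fads2, Me1 and Acss2), and 5 regulators (Srebf1, Srebf2, Scap, Insig1 and Insig2). All 35 passed the filter on low counts in every comparison. The 47 libraries came from male C57BL/6j mice aged 15 to 16 weeks and fed ad libitum, and no genotype or drug is given for them. Germ-free mice (GF) are raised without microorganisms, and conventionally raised mice (convR) carry a flora. Sampling covered the day at ZT2, 6, 10, 14, 18 and 22, where ZT (zeitgeber time) counts hours from lights on. There were 12 convR duodenum, 12 GF duodenum, 12 convR ileum and 11 GF ileum libraries, 2 per time and group, except that GF ileum at ZT2 had 1. RNA came from whole pieces of duodenum, the segment next to the stomach, or ileum, the last segment before the colon, so muscle, immune and fat cells are in it beside the epithelium. Nothing in the labels ties each library to its own mouse, so p-values measure only the spread between these libraries, which may be technical.

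As background, most of these genes are targets of the sterol regulatory element binding proteins, transcription factors made as precursors in the membrane of the endoplasmic reticulum. When membrane sterol is low, Scap escorts the precursor to the Golgi, where it is cut and released to the nucleus; when sterol is high, Insig1 and Insig2 hold Scap back. SREBP2, encoded by Srebf2, acts mainly on cholesterol genes, and SREBP1, encoded by Srebf1, mainly on fatty acid genes, where insulin and liver X receptors also act on it. In the intestine both products go into membranes and into chylomicrons, the particles that carry dietary fat, and the ileum also takes back bile acids, which are made from cholesterol.

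The start regions of these genes show which factor letters they share. RefSeq windows of 300 bases, 250 before and 50 after the start on GRCm38.p6, were at hand for 28 of the 35 members, and none for Fdps, Fdft1, Sqle, Stard4, Scd1, Scd2 and Fads1. Both strands were searched for the letters CCAAT (bound by NF-Y, a partner of SREBP), GGGCGG (a core of the Sp1 box), CACGTG (an E-box) and TCACNCCAC (a core of the sterol regulatory element), and none of these motifs contains another. CCAAT was found in 13 of 14 sterol, 6 of 9 fatty acid and 4 of 5 regulator genes, 82.1% of members in all, against 41.1% of the 27025 genes with a window. GGGCGG was found in 12 of 14 sterol, 4 of 9 fatty acid and 5 of 5 regulator genes, 75% of members against 38.2%. CACGTG was in 17.9% of members against 8.09%. The strict sterol element core was in 1 member, Hmgcs1, 3.57% of members against 1.44%. A match describes letters only, and no match says only that these letters are not in the window. Stretches of 150 bases are printed for 5 sterol and 3 fatty acid genes whose values the results turn on, or that hold the sterol element core. They run 5′ to 3′ on the gene's own strand, and capitals mark the sterol element core and CCAAT or its reverse complement ATTGG.
Hmgcs1 (chr13:119690201-119690350, plus strand): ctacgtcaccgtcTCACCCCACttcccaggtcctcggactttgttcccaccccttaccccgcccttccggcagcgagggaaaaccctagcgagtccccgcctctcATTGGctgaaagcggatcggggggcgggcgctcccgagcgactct
Mvd (chr8:122443423-122443572, minus strand): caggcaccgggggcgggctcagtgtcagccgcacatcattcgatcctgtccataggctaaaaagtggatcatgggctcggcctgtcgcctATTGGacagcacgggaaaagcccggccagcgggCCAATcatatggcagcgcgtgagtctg
Idi1 (chr13:8885456-8885605, plus strand): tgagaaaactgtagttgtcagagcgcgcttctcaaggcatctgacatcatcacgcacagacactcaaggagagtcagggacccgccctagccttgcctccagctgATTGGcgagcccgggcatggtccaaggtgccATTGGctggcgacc
Lss (chr10:76531455-76531604, plus strand): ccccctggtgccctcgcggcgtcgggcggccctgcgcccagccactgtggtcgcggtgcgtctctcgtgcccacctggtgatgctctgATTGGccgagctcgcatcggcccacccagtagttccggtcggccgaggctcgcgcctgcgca
Cyp51 (chr5:4104698-4104847, minus strand): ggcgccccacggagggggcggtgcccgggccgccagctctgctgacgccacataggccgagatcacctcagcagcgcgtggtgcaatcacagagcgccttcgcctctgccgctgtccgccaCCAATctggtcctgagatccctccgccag
Fasn (chr11:120824548-120824697, minus strand): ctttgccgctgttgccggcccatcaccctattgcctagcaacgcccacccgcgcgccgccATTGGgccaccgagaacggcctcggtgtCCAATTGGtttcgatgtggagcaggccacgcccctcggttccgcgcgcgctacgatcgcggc
Elovl5 (chr9:77917215-77917364, plus strand): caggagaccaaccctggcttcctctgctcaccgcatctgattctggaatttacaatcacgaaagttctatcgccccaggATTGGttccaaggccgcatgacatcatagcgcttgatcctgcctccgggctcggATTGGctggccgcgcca
Acss2 (chr2:155517893-155518042, plus strand): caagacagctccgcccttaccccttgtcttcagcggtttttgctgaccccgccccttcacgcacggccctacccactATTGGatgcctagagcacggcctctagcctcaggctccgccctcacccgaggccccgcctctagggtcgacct
Hmgcs1 carries the sterol element core upstream of a CCAAT box in reverse orientation. Mvd holds CCAAT letters in both orientations.

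Depth ran from 22.5 to 41.9 M counted reads per library with a median of 31.9 M. The lowest member, Acacb, had at least 86 counts in every library. Levels are given as CPM (read counts scaled to a common library total), and as CPM divided by exon length in kilobases (RPKM) where genes are compared with each other. Summed epithelial markers, among them villin, had group medians of 6618, 6615, 8953 and 9188 CPM in convR duodenum, GF duodenum, convR ileum and GF ileum. Summed pancreas acinar markers ran up to 3344 CPM in convR duodenum and 8215 CPM in GF duodenum, and stomach and Brunner gland markers up to 17436 and 5019 CPM. In all, 12 of the 47 libraries passed a limit on such markers (a mean over 100 CPM), on scaling (a factor over 1.2) or, in ileum, on the ileal bile acid binder Fabp6 (under 1000 CPM), and 7 of them were convR duodenum. Results that change without them are given with and without. In both tissues GF libraries were lower in all tested markers of T cells (6 of 6), B and plasma cells (5 of 5) and macrophages (6 of 6) and in all 6 cell division genes, and ileal smooth muscle markers (6 of 6) were higher. Their part in the results below was not tested. All these comparisons used edgeR's quasi-likelihood test, with Benjamini-Hochberg adjustment over all genes and a threshold of 0.05.

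The members spanned a wide range of levels. Hmgcs1, which makes HMG-CoA at the entry of the mevalonate pathway, was the highest per length in all 4 groups, with median RPKM of 51.4 in convR duodenum, 52.2 in GF duodenum, 195 in convR ileum and 276 in GF ileum. Acacb, the mitochondrial form of acetyl-CoA carboxylase, was the lowest in all 4, with 0.652, 0.516, 0.664 and 0.407 RPKM in the same order. The desaturase Scd2, a minor member in duodenum at 9.90 RPKM in convR and 7.58 in GF, was second to Hmgcs1 in ileum at 85.3 and 134 RPKM.

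A class level was formed in each library as the mean, over the genes of a class, of log2(CPM + 0.5) centred on each gene's mean over all libraries. For the sterol class the lowest, median and highest libraries stood at -0.75, -0.62 and -0.17 in convR duodenum, -0.78, -0.63 and -0.41 in GF duodenum, -0.18, 0.48 and 0.73 in convR ileum and 0.42, 0.94 and 1.27 in GF ileum. The duodenal and ileal libraries thus formed separate ranges in GF, and in convR nearly so, with the ileum higher. For the fatty acid class the same values were -0.60, -0.28 and 0.37, -0.74, -0.52 and -0.21, -0.01, 0.26 and 0.49 and 0.04, 0.41 and 1.24. The sterol class minus the fatty acid class had medians of -0.37 in convR duodenum, -0.09 in GF duodenum, 0.19 in convR ileum and 0.38 in GF ileum on the log2 scale. By these medians the sterol class stood lowest relative to the fatty acid class in convR duodenum and highest in GF ileum. The class levels use library totals, unlike the tests. With scaling factors fitted within each tissue, the duodenal sterol medians were -0.65 in convR and -0.54 in GF. The highest convR duodenum library then stood at -0.39. The duodenal fatty acid medians were then -0.30 in convR and -0.42 in GF. These class levels are descriptions and carry no test.

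**Figure D1:**
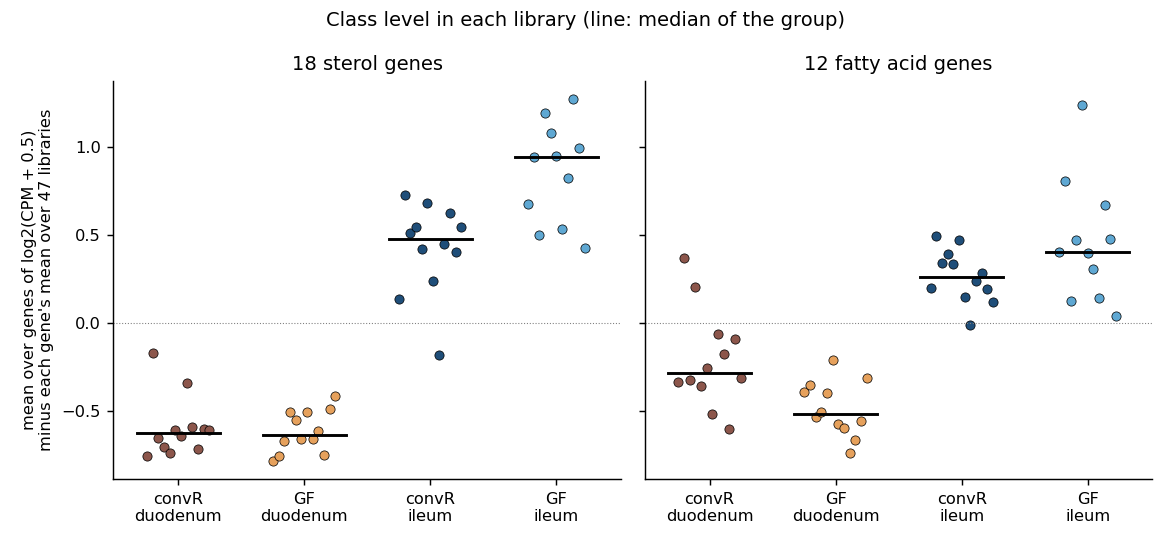
Class level of the sterol and the fatty acid genes in each of the 47 libraries, by group (log2 scale, centred on each gene's mean over all libraries); points are libraries and bars are medians. Ileal libraries sit above duodenal ones of the same status for the sterol class, except that convR ileum ZT6 replicate 2 (-0.18) is below convR duodenum ZT6 replicate 1 (-0.17), with medians of 0.48 and 0.94 in convR and GF ileum against -0.62 and -0.63 in duodenum.

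Sterol genes were higher in ileum than in duodenum along nearly the whole pathway, with and without a flora. In convR, 16 of the 18 rose in ileum and none fell, with a median log2 difference of 1.02; among all 18164 genes tested 24.9% were higher and 24.8% lower, with a median of 0.01. In GF, 16 of 18 rose and none fell, with a median of 1.46, against 33.2% higher and 33.4% lower among 17909 genes. The 2 that passed in neither status were Ggps1, which makes geranylgeranyl diphosphate on a side branch (log2 0.10 in convR and 0.02 in GF), and the sterol isomerase Ebp (-0.05 and 0.01). Smooth muscle markers moved with this contrast: 6 of 6 were higher in ileum in both statuses, with median log2 differences of 1.13 in convR and 1.47 in GF, and their summed levels ran from 537 to 1453, 589.7 to 859, 1330.0 to 2201 and 1820.3 to 2679 CPM in convR duodenum, GF duodenum, convR ileum and GF ileum. Cell division genes were higher in ileum for 2 of 6 in convR and 6 of 6 in GF (median 0.36). Their part in the result was not tested. In bulk tissue, fewer cells of a type and less RNA per cell cannot be told apart.

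Sqle, squalene epoxidase, had 35.9, 43.1 and 74.5 CPM (lowest, median and highest, the order used throughout) in convR duodenum and 105, 196 and 241 CPM in convR ileum (log2 1.95 ± 0.11 (SE), adjusted p = 4.5e-12). Every ileal library lay above every duodenal one. Hmgcs1 went from 149.7, 166 and 252 CPM in convR duodenum to 303, 630.2 and 835 CPM in convR ileum (log2 1.76 ± 0.12 (SE), adjusted p = 8.0e-11), again with no overlap. Cyp51, lanosterol demethylase, had 54.1, 66.2 and 99.1 CPM in convR duodenum and 109, 220.4 and 301 CPM in convR ileum (log2 1.63 ± 0.11 (SE), adjusted p = 9.3e-11). The gap between the groups was narrow there, with the lowest ileal library just above the highest duodenal one. Idi1, isopentenyl diphosphate isomerase, rose by log2 1.13 and Fdft1, squalene synthase, by 1.71 in convR. Their groups did not overlap either, but the gaps were narrow. The highest duodenal and lowest ileal libraries had 20.8 and 21.6 CPM for Idi1 and 58.4 and 59.6 CPM for Fdft1. The share of all genes without overlap between the tissues was not counted, so such separation is only described, here and below.

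In GF mice Tm7sf2, a sterol reductase, had the smallest p of the class, though a change near the class median, with 14.8, 16.5 and 20.04 CPM in duodenum and 35.8, 51.3 and 63.6 CPM in ileum (log2 1.49 ± 0.07 (SE), adjusted p = 1.3e-13). Mvd, mevalonate diphosphate decarboxylase, had 7.14, 8.73 and 10.96 CPM in GF duodenum and 29.2, 43.1 and 65.2 CPM in GF ileum (log2 2.15 ± 0.11 (SE), adjusted p = 2.4e-12). For both genes the lowest ileal library was far above the highest duodenal library. Mvk, mevalonate kinase, rose by log2 1.11, the sterol dehydrogenase Nsdhl by 1.31 and Cyp51 by 2.35, all without overlap.

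The fatty acid genes went both ways. In convR, 7 of 12 rose in ileum and 3 fell, with a median log2 difference of 0.34. In GF, 8 rose and 3 fell, with a median of 0.89. Among all genes tested, 24.9% were higher and 24.8% lower in convR, and 33.2% and 33.4% in GF. The number of falls was thus near that share in convR and below it in GF. Scd2 stood out in size, with 42.3, 53.98 and 129.7 CPM in convR duodenum and 237, 465 and 633 CPM in convR ileum (log2 2.69 ± 0.15 (SE), adjusted p = 5.3e-12). No duodenal library came near the ileal range. Acaca, the cytosolic acetyl-CoA carboxylase that commits carbon to fatty acids, had 39.2, 44.9 and 67.4 CPM in convR duodenum and 79.9, 98.5 and 130.5 CPM in convR ileum (log2 1.05 ± 0.06 (SE), adjusted p = 1.2e-11), with no overlap. Elovl5, an elongase of polyunsaturated fatty acids, rose by log2 0.92 in convR and 1.68 in GF, and Acly, ATP citrate lyase, by 0.79 and 1.02.

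The 3 that fell in ileum were the same in both statuses. Fads1, a desaturase of polyunsaturated fatty acids, had 36.1, 46.97 and 82.9 CPM in convR duodenum and 18.7, 23.4 and 30.8 CPM in convR ileum (log2 -1.06 ± 0.07 (SE), adjusted p = 1.8e-11). All ileal libraries lay below all duodenal ones. Elovl6, an elongase of saturated fatty acids, fell by 0.91 in convR and 0.67 in GF on the log2 scale. Me1, malic enzyme, which supplies NADPH, fell by 1.35 and 1.37. Fads2, the desaturase encoded next to Fads1 on chromosome 19 with 81.1 kb between them, went the other way in GF, with 26.7, 32.1 and 46.1 CPM in duodenum and 50.6, 70.04 and 78.3 CPM in ileum (log2 0.88 ± 0.07 (SE), adjusted p = 8.5e-10). In convR the rise of Fads2 was smaller (log2 0.17) and lost its call in 3 of 24 fits with 1 library left out, those without convR duodenum ZT18 replicate 1, convR duodenum ZT22 replicate 2 or convR ileum ZT18 replicate 2. Me1 and Fads2 also lost their calls in convR without the 12 libraries past the limits.

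Markers of fat cells were also higher in convR ileum. Summed adipocyte markers (10 genes) ran from 136.1 to 247 CPM in convR duodenum, 171 to 314 in GF duodenum, 175 to 324 in convR ileum and 114 to 436 in GF ileum, and 8 of 10 were higher in convR ileum than in convR duodenum, 2 of 10 lower, against 1 higher and 2 lower in GF. Adiponectin, a defining adipocyte product, had a median of 10.46 CPM in convR ileum and at most 19.9 CPM in any library. Their part in the result was not tested.

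Among the regulators, Srebf2 and Insig2 rose in ileum in both statuses and Srebf1 fell. Srebf1 had 57.7, 82.1 and 115 CPM in convR duodenum and 57.4, 66.5 and 75.9 CPM in convR ileum (log2 -0.40 ± 0.07 (SE), adjusted p = 5.7e-05). Its ranges overlapped widely. Srebf2 rose by log2 0.64 in convR and 0.83 in GF. Insig2, which holds Scap in the endoplasmic reticulum, had 24.5, 32.5 and 40.3 CPM in convR duodenum and 41.1, 60.2 and 92.7 CPM in convR ileum (log2 0.86 ± 0.10 (SE), adjusted p = 3.2e-07), and the rise in GF was 0.47. In CPM every convR ileal library was above every convR duodenal one for Insig2, but only narrowly, at 41.1 against 40.3. With scaling factors fitted within each tissue, the values were 39.4 in convR duodenum ZT22 replicate 2 and 39.2 in convR ileum ZT14 replicate 1. Those factors came from separate fits of duodenum and ileum, so this slight overlap does not compare the tissues on a shared scale. Scap differed by log2 0.01 in convR and Insig1 by -0.02, neither past the threshold. Under scaling by library totals alone, 44.4% of all genes were called higher and 25.7% lower in GF ileum than in GF duodenum, with the median of all genes shifted by 0.12, and 17 of 18 sterol genes rose in both statuses.

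**Figure D2:**
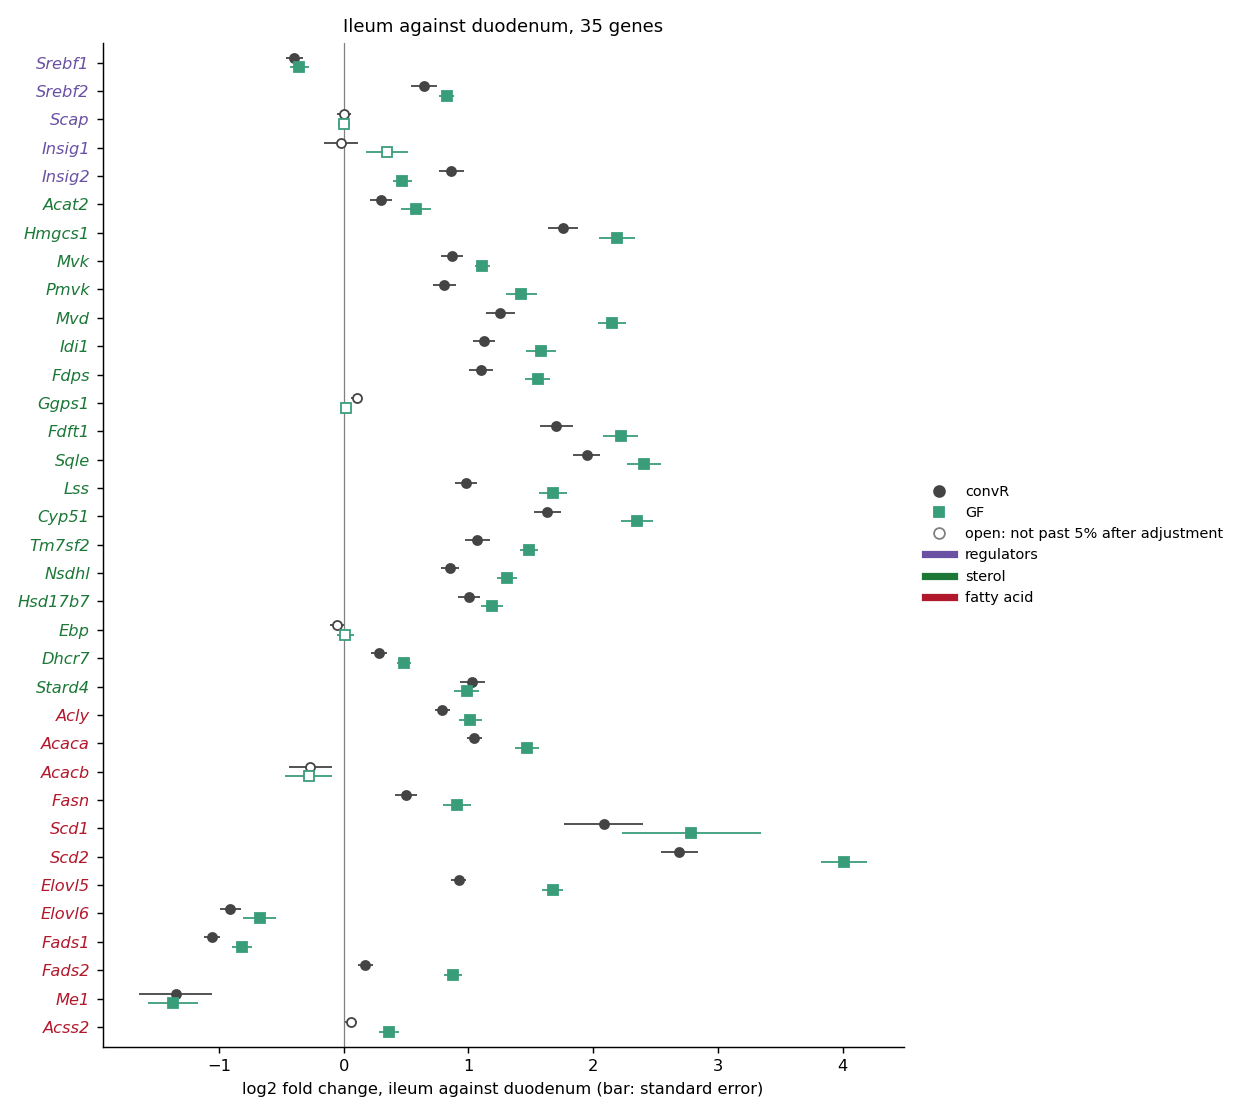
Log2 difference of ileum against duodenum for each of the 35 members in convR and in GF, with bars of 1 SE; filled points passed the threshold of 0.05. Nearly all sterol genes lie to the right of 0, while Me1, Fads1 and Elovl6 lie to the left.

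Without a flora, the sterol genes of the ileum stood higher as a group. In ileum, 16 of the 18 rose in GF and none fell, with a median log2 difference of 0.50; among all 18082 genes tested 19.5% were higher and 22.4% lower, with a median of 0.01. The 2 that did not pass were Sqle (log2 0.27) and Ggps1 (0.04). All 26 calls among the 35 members held without the 12 libraries past the limits, of which 2 were ileal. With 1 library left out at a time, between 25 and 27 members were called, and only Fdft1 (log2 0.46) ever lost its call, in 5 of 23 fits, those without convR ZT18 replicate 1, GF ZT14 replicate 2, GF ZT18 replicate 1, GF ZT2 replicate 2 or GF ZT22 replicate 1.

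Dhcr7, which performs the last reduction to cholesterol, had 34.9, 39.04 and 47.1 CPM in convR ileum and 46.5, 58.4 and 75.2 CPM in GF ileum (log2 0.60 ± 0.06 (SE), adjusted p = 2.4e-07). Of the 11 GF libraries, 10 lay above the highest convR library, and GF was higher at all 6 times. Mvk had 16.5, 25.3 and 30.6 CPM in convR ileum and 28.4, 33.9 and 41.02 CPM in GF ileum (log2 0.60 ± 0.07 (SE), adjusted p = 1.6e-06), with 8 of 11 GF libraries above all convR ones. Lss, lanosterol synthase, which closes the sterol rings, showed 46.2, 69.8 and 85.00 CPM in convR and 68.3, 114 and 180.2 CPM in GF (log2 0.84 ± 0.12 (SE), adjusted p = 2.0e-05). Most GF libraries, 9 of 11, were above every convR library.

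Stard4, a carrier of sterols between membranes, had 238, 316 and 398 CPM in convR ileum and 333, 456 and 565 CPM in GF ileum (log2 0.48 ± 0.07 (SE), adjusted p = 2.9e-05). Tm7sf2 had 19.7, 34.95 and 45.8 CPM in convR and 35.8, 51.3 and 63.6 CPM in GF (log2 0.64 ± 0.10 (SE), adjusted p = 4.9e-05). For these genes 8 and 9 of 11 GF libraries exceeded all convR libraries, so the groups overlapped in part. Hmgcs1 at the head of the pathway rose by log2 0.52, Idi1 by 0.53, Pmvk by 0.47 and Fdps, farnesyl diphosphate synthase, by 0.44. The medians of Pmvk hardly differed (GF to convR ratio 0.993): 5 of 11 GF libraries lay above all convR ones and 6 below the convR median. Cyp51 rose by 0.63, Mvd by 0.43, Nsdhl by 0.56, Hsd17b7 by 0.49, Acat2 by 0.53 and Ebp by 0.18, the smallest rise called in the class.

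The fatty acid genes of the ileum moved the same way in smaller number: 6 of 12 rose in GF and none fell, with a median of 0.35. Acss2, which makes acetyl-CoA from acetate, had 43.9, 52.4 and 63.1 CPM in convR ileum and 54.4, 63.8 and 104 CPM in GF ileum (log2 0.47 ± 0.08 (SE), adjusted p = 1.4e-04). Of the 11 GF libraries, 6 lay above the convR range. Scd2 had 237, 465 and 633 CPM in convR and 409.6, 728 and 1339 CPM in GF (log2 0.87 ± 0.19 (SE), adjusted p = 0.0014), with 6 of 11 GF libraries above all convR ones. Fasn, fatty acid synthase, rose by log2 0.47, Elovl5 by 0.34, Acaca by 0.38 and Fads2 by 0.27. Acacb, with 5.26, 6.74 and 9.41 CPM in convR and 2.78, 4.14 and 10.04 CPM in GF, did not pass (log2 -0.41), but did with the replicate number as a block. Scd1 and Me1 spread widely between libraries and did not pass: Scd1 had 78.3, 142 and 241 CPM in convR ileum and 82.3, 171 and 996 CPM in GF ileum (log2 0.63 ± 0.35 (SE), adjusted p = 0.165), and Me1 differed by 0.37. Acly, Elovl6 and Fads1 differed by 0.09, -0.13 and -0.09.

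Insig2 was the only member that fell in GF ileum. It had 41.1, 60.2 and 92.7 CPM in convR and 32.6, 43.7 and 73.1 CPM in GF (log2 -0.38 ± 0.09 (SE), adjusted p = 0.0025). The ranges overlapped. Insig1, itself a target of the pathway, had 88.1, 144 and 157 CPM in convR and 115, 191 and 314 CPM in GF (log2 0.61 ± 0.15 (SE), adjusted p = 0.0029). Srebf1 rose by log2 0.37 and Srebf2 by 0.32, while Scap differed by 0.07 and did not pass. Scaling by library totals alone called 12.8% of all genes higher and 26.9% lower in ileum, and left 14 sterol genes, 5 fatty acid genes and 2 regulators higher and Insig2 lower. In ileum, 5 of 10 adipocyte markers fell in GF and none rose, and the summed medians were 249 CPM in convR and 154.8 in GF. Their part in the result was not tested.

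In duodenum the sterol and fatty acid genes parted. Of the 18 sterol genes 7 rose in GF and 1 fell, with a median log2 difference of 0.11, and of the 12 fatty acid genes 1 rose and 5 fell, with a median of -0.23. Among all 17986 genes tested 22.5% were higher and 23.8% lower, with a median of -0.01. The sterol genes thus had more rises and fewer falls, and the fatty acid genes more falls and fewer rises, than that share of all genes gives. For the fatty acid genes this did not hold without the 12 libraries past the limits, where 1 rose and 1 fell, as described below. Stard4 had 114, 149 and 207 CPM in convR duodenum and 137, 216 and 289.5 CPM in GF duodenum (log2 0.56 ± 0.12 (SE), adjusted p = 5.3e-04). It rose most among the sterol genes, with 7 of 12 GF libraries above all convR ones. Dhcr7 had 25.97, 29.8 and 49.4 CPM in convR and 31.7, 38.5 and 42.4 CPM in GF (log2 0.41 ± 0.08 (SE), adjusted p = 2.1e-04). In CPM all 12 GF libraries were above the convR median, yet none was above the highest convR library, which was convR ZT6 replicate 1. That library was past the scaling limit. With scaling factors fitted within the tissue its value was 38.8, and the highest convR value was 39.2, in ZT22 replicate 1. Most GF libraries then lay above all convR ones, up to 46.0 in GF ZT10 replicate 2.

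Hsd17b7, a reductase of keto-sterols, had 26.9, 29.1 and 37.6 CPM in convR duodenum and 30.6, 34.1 and 37.00 CPM in GF duodenum (log2 0.32 ± 0.05 (SE), adjusted p = 2.1e-05). The groups overlapped. Mvk rose by log2 0.37, Tm7sf2 by 0.24, Acat2, the thiolase that makes acetoacetyl-CoA, by 0.25 and Ggps1 by 0.13. Of these, Acat2 held its call in 12 of 24 fits with 1 library left out and Ggps1 in 16, and both lost it without the 12 libraries past the limits. Mvd was the only sterol gene that fell, with 9.16, 13.2 and 24.4 CPM in convR and 7.14, 8.73 and 10.96 CPM in GF (log2 -0.44 ± 0.11 (SE), adjusted p = 0.0032). All GF libraries lay below the convR median. The other 10 sterol genes did not pass, among them Hmgcs1 (log2 0.11), Idi1 (0.08), Cyp51 (-0.09) and Sqle (-0.18).

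Among the fatty acid genes of the duodenum, Elovl5 had 26.2, 29.5 and 41.5 CPM in convR and 17.7, 20.5 and 24.9 CPM in GF (log2 -0.42 ± 0.05 (SE), adjusted p = 2.3e-06). It was the only member whose GF and convR libraries did not overlap in duodenum, a pattern that 3.25% of all genes showed in this direction. A count of 1 of 35 is near that share, and the gap was narrow, at 24.9 against 26.2 CPM. Fads2 had 35.7, 46.99 and 75.6 CPM in convR and 26.7, 32.1 and 46.1 CPM in GF (log2 -0.41 ± 0.07 (SE), adjusted p = 1.2e-04), with some overlap. Fads1 fell by 0.33, Elovl6 by 0.37 and Acly by 0.13 on the log2 scale, and Acly kept its call in 9 of 24 fits with 1 library left out. Acss2 alone rose, with 36.8, 47.8 and 70.3 CPM in convR and 44.1, 49.8 and 56.4 CPM in GF (log2 0.18 ± 0.05 (SE), adjusted p = 0.0048). The groups overlapped here too. The 6 that did not pass were Acaca (log2 -0.03), Acacb (-0.40), Fasn (0.07), Scd1 (0.01), Scd2 (-0.41) and Me1 (0.35).

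The duodenal falls depended on which libraries were kept. Without the 12 libraries past the limits, which left 5 convR and 9 GF libraries, 2 of the 6 fatty acid calls remained (Elovl5 and Acss2), all 6 kept their direction, and their median went from -0.35 to -0.31. The share of all genes called was then 28.9%, so that 2 of 12 is below the background. The sterol calls numbered 7, with Lss gained and Acat2 and Ggps1 lost. Srebf1 rose in GF duodenum, with 57.7, 82.1 and 115 CPM in convR and 70.3, 104 and 118 CPM in GF (log2 0.34 ± 0.09 (SE), adjusted p = 0.0035), and the other 4 regulators did not pass. Scaling moved this comparison most: with library totals alone the median of all genes shifted by -0.13, 11.9% of all genes were called higher and 36.8% lower, the sterol class had 4 rises and 3 falls, the fatty acid class 6 falls and no rise, and no regulator was called.

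**Figure D3:**
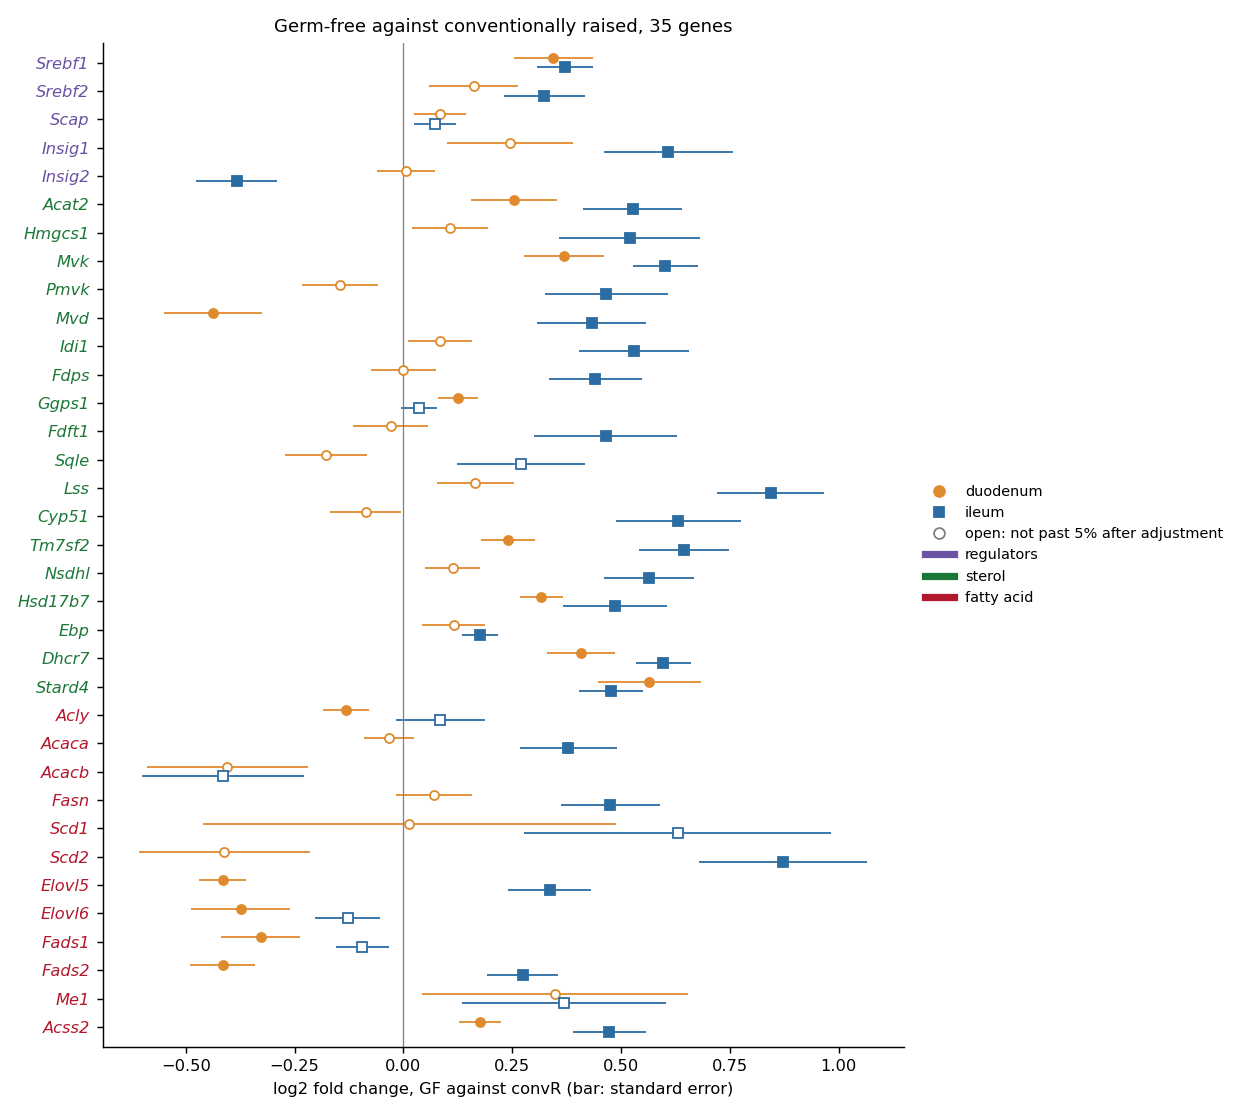
Log2 difference of GF against convR for each of the 35 members in duodenum and in ileum, with bars of 1 SE; filled points passed the threshold of 0.05. In ileum 25 members lie above 0 with a call and Insig2 below; in duodenum 9 called members lie above 0 and 6 below.

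**Figure D4:**
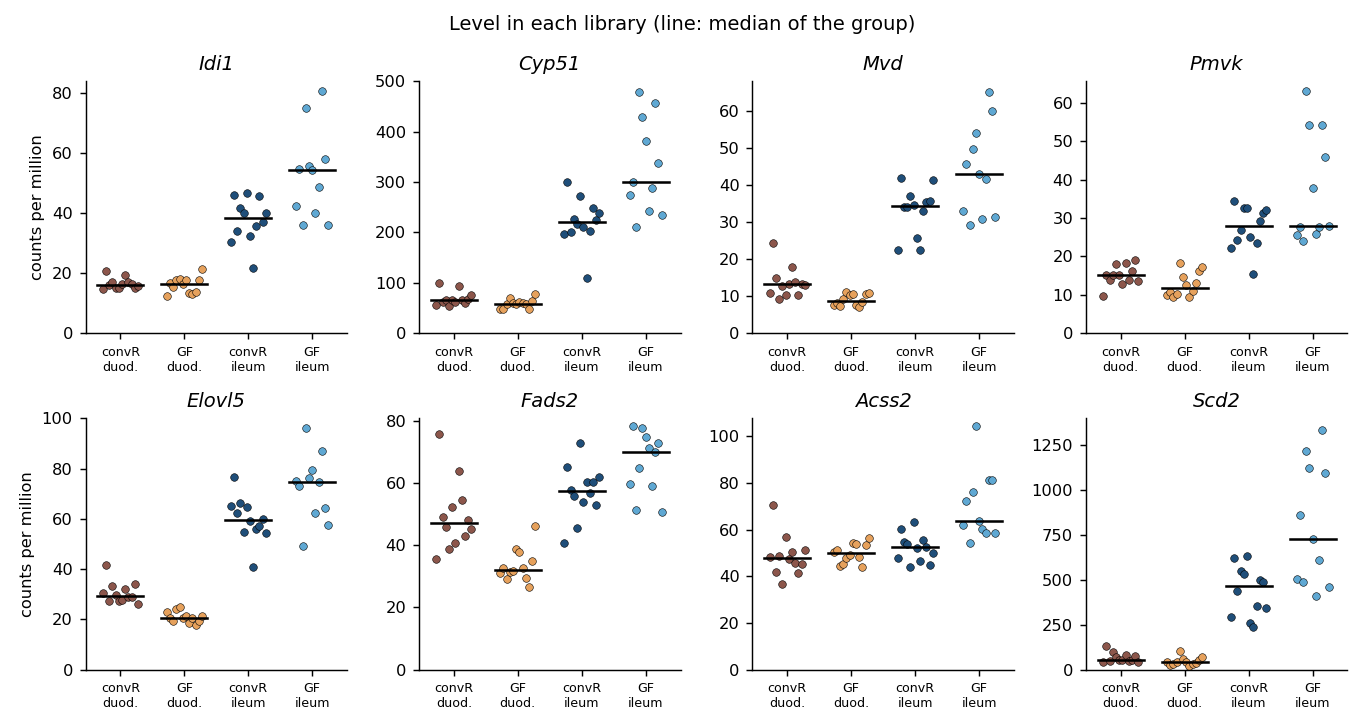
CPM of 8 members (Idi1, Cyp51, Mvd, Pmvk, Elovl5, Fads2, Acss2 and Scd2) in every library of the 4 groups, on axes that start at 0; bars are medians. Elovl5 in duodenum shows GF and convR libraries without overlap, by a narrow gap. Mvd runs down from convR to GF in duodenum (medians 13.2 and 8.73 CPM) and up in ileum (34.4 and 43.1 CPM).

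The GF effect itself differed between the tissues for 14 of the 35 members, tested as an interaction over all 47 libraries. It was larger, or more positive, in ileum for 8 sterol and 5 fatty acid genes, and lower for Insig2; among all 19000 genes 4.58% were called higher and 7.69% lower. Medians of the difference were 0.43 for the sterol class and 0.36 for the fatty acid class, against -0.005 for all genes. Mvd turned from a fall in duodenum (log2 -0.44) to a rise in ileum (0.43), a difference of log2 0.87 ± 0.17 (SE), adjusted p = 6.5e-04. Elovl5 did the same, from -0.42 to 0.34 (log2 0.76 ± 0.11 (SE), adjusted p = 5.5e-06), and so did Fads2, from -0.41 to 0.27 (log2 0.69 ± 0.12 (SE), adjusted p = 5.0e-05). With all libraries kept, these 3 were called in both tissues with opposite sign. Fads2 lost its duodenal call without the 12 libraries past the limits. Cell type markers moved in the same test: 5 of 6 T cell markers were lower (median log2 -2.42), 3 of 6 smooth muscle markers were higher (median 0.40), and 1 of 10 adipocyte markers was called, lower, with all 10 negative (median -1.14). Summed T cell markers ran from 29.7 to 72.7, 22.97 to 38.5, 27.1 to 56.3 and 1.58 to 6.31 CPM in convR duodenum, GF duodenum, convR ileum and GF ileum. Their part in the result was not tested.

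The rest of the 14 differed in size or were called in ileum alone. Scd2 differed by log2 1.29 (adjusted p = 0.0019), with -0.41 in duodenum, not past the threshold, and 0.87 in ileum. Cyp51 differed by 0.72, Lss by 0.68, Pmvk by 0.62, Nsdhl by 0.46, Idi1 by 0.45, Fdps by 0.45 and Tm7sf2 by 0.41. Acaca differed by 0.42 and Acss2 by 0.30, while Insig2 differed by -0.38. Dhcr7, Mvk and Stard4, called higher in GF in both tissues, showed differences of 0.20, 0.24 and -0.08 that did not pass.

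This comparison also rested on the libraries kept. Over 47 fits with 1 library left out, 12 to 18 members were called, and the weakest were Idi1 (30 of 47 fits) and Acss2 (39). Insig2 lost its call in 4 fits, those without convR duodenum ZT6 replicate 1, GF duodenum ZT14 replicate 2, GF ileum ZT10 replicate 1 or GF ileum ZT10 replicate 2, and Fdps in the fit without GF ileum ZT2 replicate 2. Without the 12 libraries past the limits, only Mvd (log2 0.94), Elovl5 (0.70) and Fads2 (0.68) were called, all 14 kept their direction, and the share of all genes called was 6.66%, so that 3 of 35 is near the background. Medians over the called members went from 0.54 to 0.51 for the sterol class and from 0.69 to 0.68 for the fatty acid class. With library totals alone 6.39% of all genes were called higher and 5.09% lower, and Insig2 lost its call.

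Other genes of the same pathways gave the wider picture. Of 12 further sterol genes 10 rose in GF ileum and none fell (median log2 0.42), and in duodenum 4 rose and 1 fell (median 0.10). Sc5d, a sterol desaturase, rose in both tissues, by log2 0.42 in duodenum and 0.47 in ileum. In ileum Erg28, which holds sterol enzymes together, rose by 0.38 and Rdh11, a retinol dehydrogenase, by 0.57. In duodenum Msmo1, a sterol methyl oxidase, rose by 0.39. Of 20 further genes of lipid synthesis, 9 rose and 2 fell in GF ileum (median 0.15), and 3 rose and 3 fell in duodenum (median 0.07). Against 22.5% of all genes higher and 23.8% lower in duodenum, the duodenal counts of this list lie below the background, while in ileum the background was 19.5% and 22.4%. Nr1h3, a liver X receptor that acts on Srebf1, rose by log2 0.30 in duodenum and 0.56 in ileum. Lpin1, a phosphatidate phosphatase, fell by 0.42 and 0.47 on the log2 scale. Dgat2, which makes triglyceride, rose in duodenum (log2 0.73 ± 0.21 (SE), adjusted p = 0.0072) and fell in ileum (log2 -0.23 ± 0.09 (SE), adjusted p = 0.045), a difference between tissues of log2 -0.95.

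Few members followed a daily rhythm that passed the test. A cosine of 24 h was fitted in each tissue and status; it called 1 member in convR duodenum (0.828% of all genes), 2 in GF duodenum (1.37%), 1 in convR ileum (0.752%) and 2 in GF ileum (0.94%). Insig2 was called in ileum in both statuses. In GF ileum its mean was 73.1 CPM at ZT2 (1 library), 48.4 at ZT6, 34.4 at ZT10, 32.9 at ZT14, 39.1 at ZT18 and 53.3 at ZT22. The fitted range from trough to peak was log2 0.99, with a peak at ZT1.1 (adjusted p = 0.014). The call was lost without GF ZT2 replicate 2. In convR ileum the mean ran from 41.8 CPM at ZT14 to 77.6 at ZT2 (range log2 0.82, peak at ZT3.0, adjusted p = 0.040), and the call held in 10 of 23 fits with 1 library left out.

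Srebf1 was called in GF ileum, with 88.5 and 117 CPM in the ZT18 libraries and 71.1 and 68.5 at ZT6 (range log2 0.58, peak at ZT18.3, adjusted p = 0.018). It lost the call without GF ZT10 replicate 2, ZT18 replicate 2, ZT6 replicate 1 or ZT6 replicate 2. In GF duodenum Scd2 was called, with 105 and 53.97 CPM at ZT18 and 28.5 and 23.3 at ZT6 (range log2 1.48, peak at ZT19.4, adjusted p = 0.027). Pmvk, phosphomevalonate kinase, was called there as well, with 18.2 and 16.2 CPM at ZT18 and 10.8 and 9.37 at ZT6 (range log2 0.81, peak at ZT19.2, adjusted p = 0.030). In convR duodenum Tm7sf2 was called, with 20.1 and 17.7 CPM at ZT2 and 12.9 and 13.4 at ZT14 (range log2 0.55, peak at ZT1.0, adjusted p = 0.029). The last 3 calls held in 19, 16 and 17 of 24 fits with 1 library left out.

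The fitted peaks of the sterol genes lay after ZT12 for 16 of 18 in GF duodenum, 17 in convR ileum and 17 in GF ileum, and for 3 of 18 in convR duodenum (of these genes Tm7sf2 in convR duodenum and Pmvk in GF duodenum passed the rhythm test). The share of all genes with a fitted peak after ZT12 was not counted. The 18 genes were read in the same libraries, so these counts are not independent observations. In convR duodenum the class level was highest at ZT6 (-0.25, against -0.70 at ZT2 and -0.71 at ZT14), where both libraries were past the limits above. No difference in rhythm was called. Between GF and convR, 0% of all genes passed in duodenum and 0% in ileum with edgeR, DESeq2 called 0 members in each, and 10 and 2 members had an unadjusted p under 0.05. Between tissues 0% of all genes passed in convR and 0.0223% in GF, with no member called by either tool, and 11 and 1 members had an unadjusted p under 0.05. The share of all genes under that unadjusted p is not given here, so none of these counts is a result about the members.

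**Figure D5:**
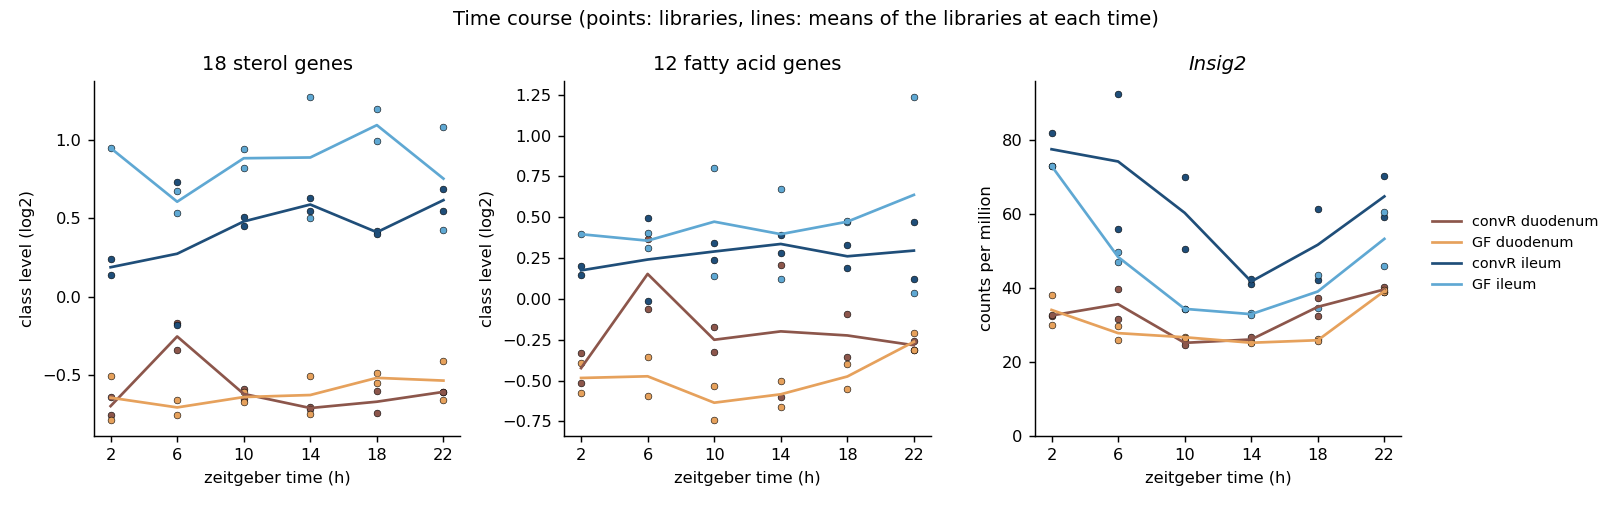
Sterol class level, fatty acid class level (log2, centred) and Insig2 (CPM) by zeitgeber time in the 4 groups; points are libraries and lines join the means of each time. Insig2 in ileum is lowest at ZT14 in both statuses, at 32.9 CPM in GF and 41.8 CPM in convR.

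By GENCODE M21 on GRCm38 (mm10), Mvd lies at chr8:122433601-122443422, Elovl5 at chr9:77917364-77984519, Fads1 at chr19:10182888-10196877, Fads2 at chr19:10062765-10101746, Scd1 at chr19:44394455-44407879 and Scd2 at chr19:44293674-44306864. Some members share exon sequence with other annotated genes in GENCODE M21, and how the authors counted such reads, or whether strand was used, is not given in the sources used here. Fdps shares 26.7% of its exon bases with a gene on the same strand, Tm7sf2 12.1% with Vps51 on the same strand, and Fdft1 18.3% with Ctsb on the opposite strand. Hmgcs1 and Scap share 12.1% and 13.2% with other annotated genes, and all other members under 10%. Scd1 and Scd2 are similar in sequence and lie 87.6 kb apart on chromosome 19. Their counts, and those of Acat2, which has a close copy, are uncertain to the extent that reads were divided among copies.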

How the data were processed

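Total RNA libraries were made with a stranded kit after removal of ribosomal RNA and read as paired ends, per the labels' protocols. The authors aligned reads with STAR 2.4.0i to mm10, per the submitters' processing notes, and deposited raw exon counts per gene beside the exon length. The strand rule, like the program and annotation behind the counts, is not given in the sources used here. The deposited counts were used unchanged. Column names spell 1 tissue differently from the labels and were matched by title.

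CPM and RPKM were computed from these counts. Each comparison was fitted on all genes with edgeR 4.0.16 (R 4.3.3), quasi-likelihood, TMM scaling and its filter at 10 counts, with zeitgeber time as a factor, a status by tissue interaction for the tissue difference, or a cosine of 24 h. Tests are two-sided. The members and lists were chosen with earlier results of these data known. Full values are given, per comparison, for up to 5 sterol and 5 fatty acid members and 2 regulators with the smallest p, up to 6 members for rhythms and differences, and up to 5 genes of each further pathway list. Some genes of those lists are not reported here. Simulated counts were run only through the GF against convR fit in duodenum and the rhythm fit in ileum. They had the same spread for all genes and no outlying libraries, so they do not cover such libraries or the other fits. Depth was 22.5 to 41.9 M counts per library. Libraries of 1 group and time differed beyond counting noise (for 23 pairs, chi-square divided by its degrees of freedom was 16.9 to 145).

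Deviations of same-numbered duodenum and ileum libraries correlated by 0.23 to 0.56 in convR, positive at 6 of 6 times, and by -0.05 to 0.14 in GF. The labels do not say whether such libraries share a mouse or a batch, and these correlations cannot tell them apart. The main fits did not use the replicate numbers. In the comparisons of the tissues within 1 status, the replicate block did pair them. Alternatives were library totals alone, DESeq2 1.42.0, no filter, the replicate block, any difference among times, each library left out, and 9 or 12 libraries left out, the last chosen after seeing the data. Exon overlap used GENCODE M21 and promoters RefSeq on GRCm38.p6.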

Additional observations from a re-analysis of the deposited data

Results flagged for a closer look

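The effect of the missing flora differed between duodenum and ileum for 14 members, by a test of the difference itself over all 47 libraries (edgeR, adjusted over all 19000 genes, of which 4.58% were called higher and 7.69% lower). As the log2 effect in ileum minus that in duodenum, the sterol genes differed by 0.87 (Mvd), 0.72 (Cyp51), 0.68 (Lss), 0.62 (Pmvk), 0.46 (Nsdhl), 0.45 (Idi1), 0.45 (Fdps) and 0.41 (Tm7sf2). The fatty acid genes differed by 1.29 (Scd2), 0.76 (Elovl5), 0.69 (Fads2), 0.42 (Acaca) and 0.30 (Acss2), and the regulator Insig2 by -0.38. Without the 12 libraries past the marker or scaling limits Mvd, Elovl5 and Fads2 kept a call and all 14 kept their sign; 3 of 35 is then near the 6.66% of all genes called.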

How the results depend on the processing

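Of 636 values of named genes under the alternatives, 603 kept their side of the threshold, 24 lost a call and 9 gained one. Direction was compared only for GF against convR, ileum against duodenum and the tissue difference, where none changed sign. Rhythms and their differences have no sign and were compared by call alone. Counts of called members moved by over 1.5 times as follows, and the cause was not tested unless fewer samples were fitted by construction. Without all 12 libraries past the limits (35 left), duodenum kept 2 fatty acid calls in place of 6, and the tissue difference kept 1 sterol, 2 fatty acid and 3 member calls in place of 8, 5 and 14. In convR duodenum the 1 call became 0 with a test for any difference among times, 4 with DESeq2, 0 with no filter and 0 to 2 with 1 library left out. In GF duodenum the 2 calls became 0 with any difference, 1 with library totals, 1 with no filter, 0 without the 9 libraries that stood apart by an earlier list and 0 to 2 with 1 library left out. In convR ileum the 1 call became 0 with any difference, 0 with library totals, 0 with no filter and 0 to 1 with 1 library left out. In GF ileum the 2 calls became 0 with any difference and 1 to 3 with 1 library left out. Over all genes the rhythm test called 149, 246, 136 and 170 genes in these groups, DESeq2 626, 574, 379 and 365, and the test of any difference 38, 147, 9 and 49. The test of any difference was fitted on each group alone, with its own filter. The cosine fits took both statuses of a tissue in 1 model and so had more libraries. Lower counts from the test of any difference are therefore not a like comparison. The tissue difference was called for 2331 genes, and for 1293 without the 12 libraries; in duodenum the counts were 8328 and 5299.

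With 1 library left out, called members numbered 12 to 15 in duodenum (sterol 6 to 8, fatty acid 5 to 7), 25 to 27 in ileum, 12 to 18 for the tissue difference (sterol 6 to 11, fatty acid 4 to 6), 28 to 30 between tissues in convR and 30 to 31 in GF. With the replicate number as a block, duodenum had 8 sterol, 7 fatty acid and 2 regulator calls, gaining Insig1 and Acacb, ileum 16, 7 and 4, the tissue difference 8, 6 and 1 (gaining Fasn), the tissues 16, 10 and 3 in convR and 16, 12 and 3 in GF (gaining Acacb), and rhythms 1, 2, 1 and 2. Across status the labels do not tie libraries by number. Correlations of deviations of same-numbered libraries ran from -0.05 to 0.26 in duodenum, positive at 3 of 6 times, and from -0.05 to 0.34 in ileum, positive at 4 of 5. Every member had at least 86 counts in each library, and 2 libraries per time limit the rhythm tests.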

Other observations

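GF ileum ZT22 replicate 1 held the highest fatty acid class level of all libraries (1.24, group median 0.41), with Scd1 at 996 CPM against a group median of 171 CPM. The summed adipocyte markers were also highest there, at 436 CPM against a group median of 154.8 CPM. In convR ileum, ZT6 replicate 2 had the lowest sterol class level (-0.18, group median 0.48), and its Fabp6 level was the lowest of that group at 206 CPM.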
